A study of Mus musculus with 15 samples.

Results

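Cxcl10 (ENSMUSG00000034855.13, chromosome 5:92346638-92348889 on the minus strand of mm10) encodes a secreted chemokine of the CXC family, and its crosslink sites with tristetraprolin (TTP) are described here by position, protein and time in LPS. It was the single gene followed, and its members were the sense-strand sites inside the gene, which came to 164 distinct nucleotides of the 123142 listed in the whole series. The gene was selected on its cDNA counts in the same lists that are reported here, including the contrast between both proteins at 1 h, so those counts are a description and were not tested.

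The cells were immortalized bone marrow-derived macrophages of C57BL/6 mice that lacked endogenous TTP (gene Zfp36), carried human c-myc and the activated Ras allele G12V, and expressed from a doxycycline-inducible vector either GFP-TTP or GFP-TTP-AA, in which alanine replaces the serines that the kinase MK2 phosphorylates. All cells had received 1 µg/ml doxycycline for 6 h, and LPS at 1 µg/ml for 0 h, 1 h or 4 h. Individual-nucleotide resolution crosslinking and immunoprecipitation (iCLIP) places the contact between a protein and an RNA at the nucleotide next to the point where reverse transcription stopped, and each unique cDNA counts 1 such event. Libraries of a group had been summed into 1 list: 2, 4 and 2 libraries for GFP-TTP at 0 h, 1 h and 4 h, and 2, 3 and 2 for GFP-TTP-AA. Between these groups there is therefore no replicate error; intervals in the text are exact 95% intervals (Poisson for a count, Clopper-Pearson for a share or ratio) that cover counting error only.

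TTP binds AU-rich elements in the 3′UTRs of inflammatory mRNAs, with AUUUA as the core and UAUUUAU as the preferred form, and recruits the machinery that removes the poly(A) tail. MK2, active shortly after LPS, phosphorylates TTP and weakens this function, which the AA mutant escapes. The Cxcl10 protein, also called IP-10, attracts activated T cells through the receptor Cxcr3, and its gene is known to be induced in macrophages by Toll-like receptor 4 through NF-κB and the interferon pathway.

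The 6 lists held between 8052 and 86497 sites and between 19167 and 174397 cDNAs each, of which 3.12% to 53.6% lay in 3′UTRs. The macrophage markers Adgre1, Itgam, Csf1r, Cd68, Lyz2 and Cd14 all had sense cDNAs in at least 1 list, although their sum ranged from 0 to 367 cDNAs between lists, and the 8 T cell, B cell, neutrophil and fibroblast markers were at 0 in every list. Zfp36, of which these cells lack the endogenous product and hold the copy of the vector, had 9, 28 and 0 sense cDNAs with GFP-TTP at 0 h, 1 h and 4 h, and 0, 162 and 0 with GFP-TTP-AA. These values are of crosslinked RNA, not of expression.

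The annotation gives Cxcl10 a pair of coding transcripts with different 3′UTRs. Cxcl10-201, with 4 exons and 98 codons, has a 3′UTR of 729 nt in its last exon (5:92346638-92347366). Cxcl10-202 has 3 exons, reads into the intron, and has a 3′UTR of 996 nt (5:92346805-92347800) that ends 167 nt before that of Cxcl10-201. Every Cxcl10 site of the 6 lists fell in the 3′UTR of Cxcl10-201. The CDS, the 5′UTR and the introns held 0 cDNAs in each list, as did the opposite strand and the 200 nt downstream of the gene. In the 434 nt that are 3′UTR only in Cxcl10-202 there were likewise 0 cDNAs. Positions below are counted in nucleotides after the stop codon of Cxcl10-201.

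Of the following stretches of RNA, the main peak and the second peak are shown because they hold the strongest GFP-TTP-AA sites at 1 h. The tail peak was weaker, and its highest site, nucleotide 609, had 7 cDNAs. The other stretches hold the AUUUA of Cxcl10-201 without a site, and the end of the transcript. All stretches were read 5′ to 3′ from the Cxcl10-201 transcript of GENCODE M21 (mm10, minus strand). Capitals mark AUUUA in the main peak and the unoccupied stretch, and runs of U in the second peak and the tail peak. In the last stretch they mark the polyadenylation hexamer.
Main peak, nucleotides 490 to 519: uauguguaaauacuAUUUAaugaacgacug
Second peak, nucleotides 532 to 560: uuccuaauguaUUUUUUguaugcuuugca
Tail peak, nucleotides 601 to 629: ggguaguuaaaguuuaUUUUUaaaaccgu
Unoccupied AUUUA, nucleotides 402 to 430: guaagacuacaaAUUUAaguuuguaagga
Polyadenylation signal, nucleotides 692 to 720: acccaaaauguAAUAAAguaauaauaacu

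All but 1 of the listed Cxcl10 cDNAs were at 1 h of LPS, and most of these were with the mutant. GFP-TTP-AA at 1 h had 549 cDNAs (interval 504 to 597) at 162 sites. GFP-TTP at 1 h had 13 cDNAs (6.92 to 22.2) at 13 sites. GFP-TTP-AA at 4 h had 1 cDNA at 1 site. Both proteins at 0 h, and GFP-TTP at 4 h, had no listed Cxcl10 site. A list holds only sites that passed the authors' false-discovery rate of 0.05, so a gene without a listed site may still have been crosslinked below that threshold.

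**Figure D1:**
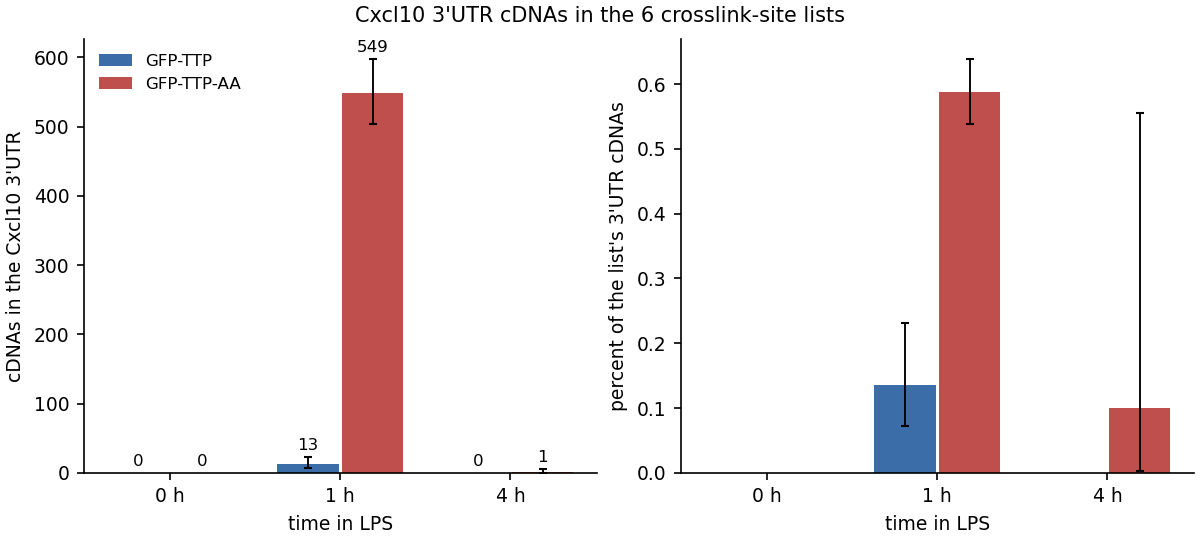
Cxcl10 3′UTR cDNAs in each of the 6 lists, as counts (left panel) and as percent of all 3′UTR cDNAs of the list (right panel), by time in LPS; bars are pooled lists and error bars are exact 95% counting intervals, drawn only where at least 1 cDNA was listed. GFP-TTP-AA at 1 h stands at 549 cDNAs against 13 for GFP-TTP, and the 4 h value of GFP-TTP-AA rests on 1 cDNA.

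The lists differ in depth, and the zeros have different weight. Cxcl10 took 0.587% (0.539 to 0.638) of the 93510 3′UTR cDNAs of GFP-TTP-AA at 1 h, the 11th place among 4468 genes, and 0.136% (0.0724 to 0.232) of the 9558 of GFP-TTP at 1 h, the 94th place among 1295 genes. At its 1 h share, the 6008 3′UTR cDNAs of GFP-TTP-AA at 0 h would have included 35.3 Cxcl10 cDNAs, where 0 were listed. This zero was not particular to Cxcl10: Cxcl2, Ccl3, Ccl2 and Ccl4, with 2536, 938, 913 and 886 cDNAs in the GFP-TTP-AA list at 1 h, were also at 0 in that of 0 h. The 4369 of GFP-TTP at 0 h would have included 5.94. At 4 h the lists were shallow: the 1 h shares amount to 5.87 cDNAs for GFP-TTP-AA, where 1 was listed, and to 1.23 for GFP-TTP, so a 4 h difference between both proteins was not detectable at this depth. More Cxcl10 mRNA per cell, more cells containing it and more binding per mRNA cannot be told apart in these lists, which hold no RNA level; nor do they give the amount of either GFP protein recovered. The header mark that treats regions as a unit was present in both 1 h lists and in none of the others, so it cannot be told apart from the time.

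At 1 h the GFP-TTP-AA list had 42.2 times as many Cxcl10 cDNAs as the GFP-TTP list (24.5 to 79.8). The summed 3′UTR cDNAs of these lists differed 9.78-fold in the same direction, so as a share of 3′UTR cDNAs Cxcl10 was 4.32-fold (2.50 to 8.16) higher with GFP-TTP-AA. At the ratio of the lists, 549 GFP-TTP-AA cDNAs would go with 56.1 GFP-TTP cDNAs, where 13 were listed. Per pooled library, GFP-TTP-AA had 183 cDNAs and GFP-TTP had 3.25.

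Among 2065 genes with at least 10 3′UTR cDNAs over both 1 h lists, 3 genes, Cxcl10 included, had a ratio of this size or more (0.145%), with GFP-TTP counts under 3 set to 3. With that minimum, a gene with few GFP-TTP-AA cDNAs could not reach this ratio whatever its GFP-TTP count. Of the 133 genes with at least 100 cDNAs, 3 reached it. The median ratio of all 2065 genes was 5.98. Anxa5, a phospholipid-binding annexin, had 3 GFP-TTP and 207 GFP-TTP-AA cDNAs, and Plek (pleckstrin) had 4 and 184; both rest on fewer GFP-TTP cDNAs than Cxcl10 and were named after their values were seen. For 1337 of the 2065 genes the GFP-TTP count was under 3 and the ratio is a lower bound. With 0.5 added to both counts instead, 484 genes reached the Cxcl10 ratio of 40.7, of which 480 had no GFP-TTP cDNA. Among the 156 genes with at least 10 GFP-TTP cDNAs, Cxcl10 had the highest ratio and Nfkbiz, with 12 and 375 cDNAs, the next at 31.2. The counting interval of the Cxcl10 ratio includes the Nfkbiz value.

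**Figure D2:**
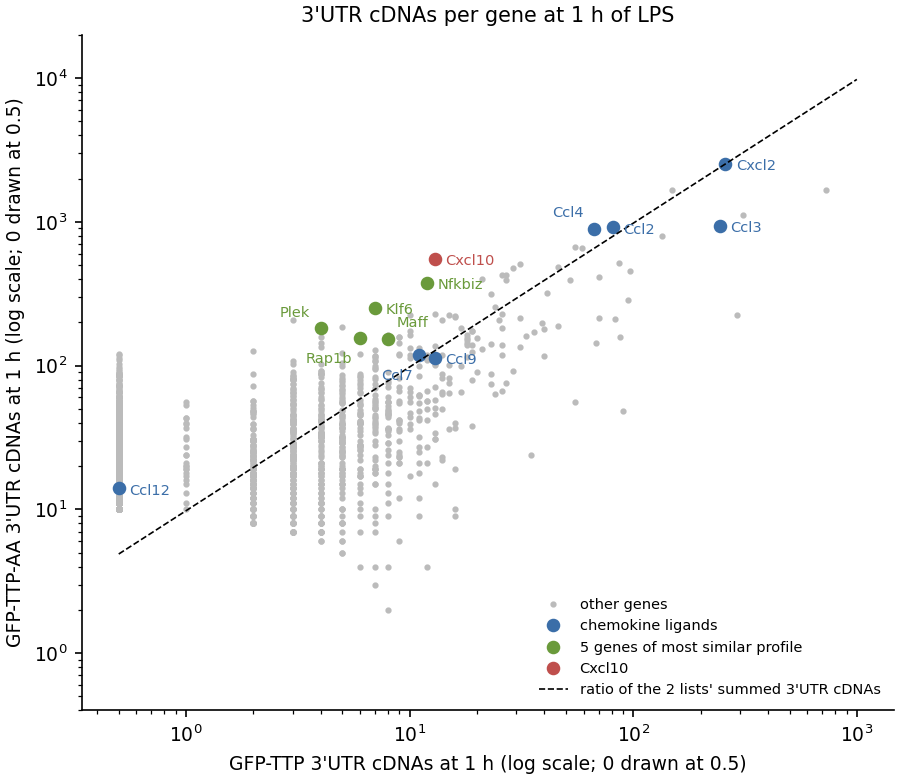
3′UTR cDNAs of each of 2065 genes in the 1 h lists, GFP-TTP on the horizontal and GFP-TTP-AA on the vertical axis (both log scales, counts of 0 drawn at 0.5); the dashed line is the ratio of the summed 3′UTR cDNAs, 9.78. Cxcl10, at 13 and 549 cDNAs, lies above the line, while Cxcl2, Ccl2, Ccl4, Ccl7 and Ccl9 lie near it and Ccl3 lies below it.

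The other chemokines with cDNAs of both proteins had lower ratios than Cxcl10. Of 14 other chemokine ligands, 7 had at least 10 cDNAs over both 1 h lists, and their ratios ran from 3.84 to 13.2 with a median of 9.83; that of Ccl12, with 14 GFP-TTP-AA cDNAs and 0 of GFP-TTP, is a lower bound of 4.67. The remaining 7 ligands, Cxcl1, Cxcl3, Cxcl9, Cxcl11, Cxcl16, Ccl5 and Ccl22, had no 3′UTR cDNA at 1 h. None of the 7 had a share at least 2-fold higher with GFP-TTP-AA, against 4.60% of all 2065 genes. For Cxcl2, which attracts neutrophils, 258 GFP-TTP and 2536 GFP-TTP-AA cDNAs gave a ratio of 9.83 (8.64 to 11.2). The ratio was 11.3 (8.97 to 14.3) for Ccl2, which attracts monocytes, from 81 and 913 cDNAs. It was 13.2 (10.3 to 17.2) for Ccl4, a macrophage inflammatory protein, from 67 and 886. These intervals lie below that of Cxcl10. They cover counting error only, and Cxcl10 was selected on this contrast, so the difference was not tested.

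For Ccl3, also a macrophage inflammatory protein, 244 GFP-TTP and 938 GFP-TTP-AA cDNAs gave 3.84 (3.34 to 4.44). The ratio was 10.7 (5.78 to 22.1) for Ccl7, another attractant of monocytes, from 11 and 118 cDNAs, and 8.69 (4.88 to 16.8) for Ccl9, from 13 and 113. Ccl9 thus had the same number of GFP-TTP cDNAs as Cxcl10. At 0 h with GFP-TTP-AA, Cxcl2, Ccl2, Ccl3, Ccl4 and Ccl7 were at 0, as Cxcl10 was, and Ccl9 had 13 cDNAs. At 0 h with GFP-TTP, Ccl7 was at 0 as well, and Ccl3 had 54 cDNAs, Ccl4 7, Ccl9 6, Cxcl2 4 and Ccl2 2. At 4 h with GFP-TTP, Cxcl2, Ccl2 and Ccl9 were at 0 like Cxcl10, whereas Ccl3 had 51, Ccl4 27 and Ccl7 4.

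Cxcl9 and Cxcl11, the other ligands of Cxcr3, had no 3′UTR cDNA in any list. In the interferon response list, 19 of 22 genes had 0 3′UTR cDNAs at 1 h, among them Ifit1, Ifit3, Isg15, Rsad2, Mx1 and Irf7. In all, 22.1% of 21039 genes with an annotated 3′UTR had at least 1 cDNA at 1 h, against 3 of these 22. Irf1, a transcription factor of this pathway, had 5 GFP-TTP and 39 GFP-TTP-AA cDNAs, a ratio of 7.80 (3.07 to 25.4). Ifnb1, which encodes interferon beta, had 4 cDNAs, all with GFP-TTP-AA, and Ifit2 had 2, both with GFP-TTP.

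Of 11 genes for the receptor, the processing enzyme and the signalling upstream and downstream, 5 had 3′UTR cDNAs at 1 h. The share over all 21039 genes with an annotated 3′UTR was 22.1%, and most of the 5 rest on few cDNAs. The 5 were Nfkb1 (3 GFP-TTP and 25 GFP-TTP-AA cDNAs) and, with GFP-TTP-AA only, Tbk1 (16), Tlr4 (12), Ifnar1 (3) and Ifnar2 (2). Cxcr3 itself, and Dpp4, the peptidase that truncates Cxcl10, were at 0.

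The genes whose profile over the 6 lists was most like that of Cxcl10 were Plek, Klf6, Rap1b and Nfkbiz, each at a distance of 0.121, and Maff at 0.173. The distance is the summed absolute difference of the 6 normalized shares divided by 2, over 162 genes with at least 100 cDNAs, whose median was 0.642. Klf6 and Maff encode transcription factors, Rap1b a small GTPase and Nfkbiz an inducible cofactor of NF-κB. Klf6 had 7 and 252 cDNAs at 1 h, Rap1b 6 and 155, and Maff 8 and 153 with GFP-TTP and GFP-TTP-AA. All 5 genes were listed at 0 in the 4 lists at 0 h and 4 h, as were 21 of the 162 genes, and the distance of 0.121 is the weight of the single Cxcl10 cDNA at 4 h.

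Along the 3′UTR the sites of GFP-TTP-AA at 1 h lay in its distal part. The first site was at nucleotide 389 and the last at 696, so that the 388 nt after the stop codon, 53.2% of the 3′UTR, and the last 33 nt held none. The stretch from the first to the last site was 68.8% A or U, against 44.1% in the nucleotides before it. All 549 cDNAs lay in the last 350 nt, a length that takes in every Cxcl10 site, since the first lies 340 nt from the end. Over 123 genes with at least 100 GFP-TTP-AA cDNAs, the median was 27.3% of cDNAs in the last 350 nt of their 3′UTR. The median length of those 3′UTRs was 1434 nt, so 350 nt is a smaller part of them. Of the other 122 genes, 92 had a longer 3′UTR than Cxcl10-201, and 25 other genes also had all cDNAs there. Of the other chemokines with at least 100 GFP-TTP-AA cDNAs, Ccl2, Ccl3, Ccl4 and Ccl7 were at 100%, Cxcl2 at 19.5% and Ccl9 at 0%.

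The cDNAs were unevenly spread within this part. In steps of 60 nt from nucleotide 361, GFP-TTP-AA had 5, 18, 193, 183, 111 and 39 cDNAs. The densest 100 nt, nucleotides 486 to 585 (5:92346782-92346881), held 350 cDNAs, or 63.8% (59.6 to 67.8) of the gene's total in 13.7% of its 3′UTR. The window was placed where these same counts were highest, so a share above 13.7% follows in part from that choice. The share in the densest 100 nt was higher in 44 and lower in 78 of the other 122 genes of that size, with a median of 54.5%.

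**Figure D3:**
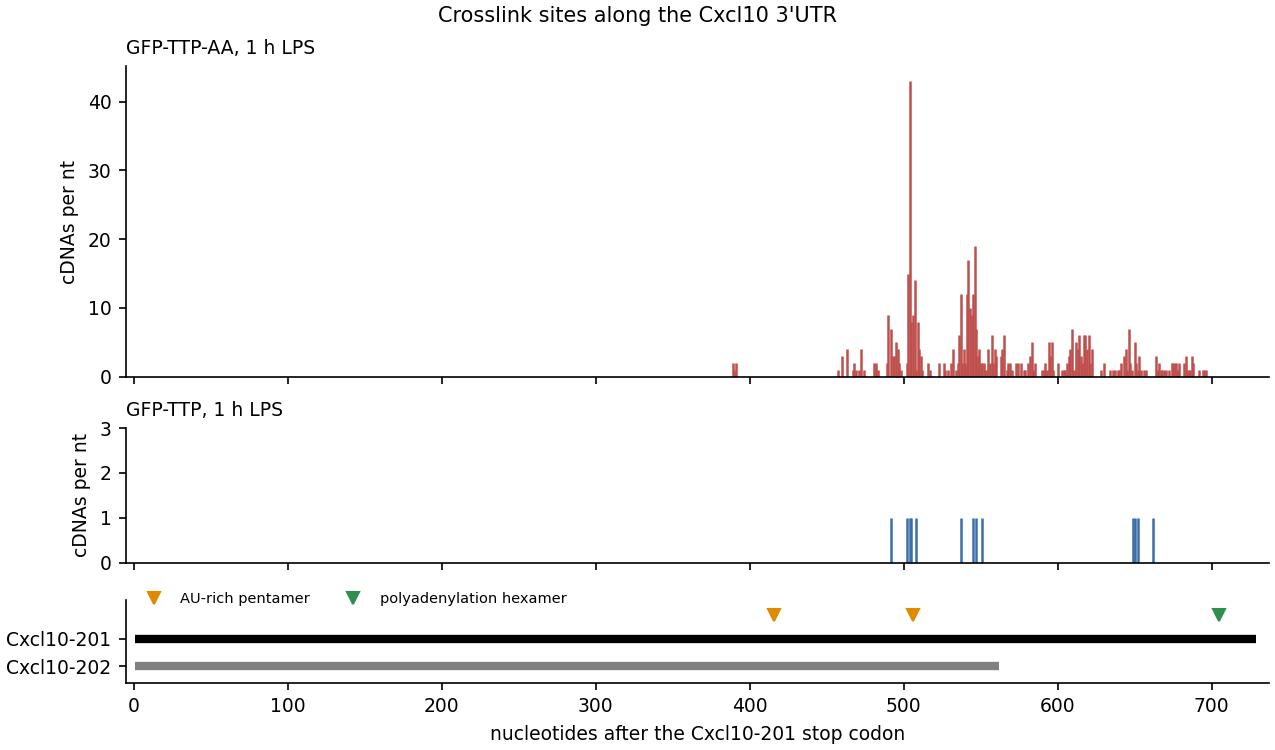
Unique cDNAs at each nucleotide of the Cxcl10 3′UTR at 1 h of LPS for GFP-TTP-AA (top) and GFP-TTP (middle, own scale), by distance from the Cxcl10-201 stop codon, with the extent of both annotated 3′UTRs after that point and the places of AUUUA (orange) and of the polyadenylation hexamer (green) below. Sites run from nucleotide 389 to 696 with the highest column, 43 cDNAs, at nucleotide 504 on the second AUUUA, and the first AUUUA carries none.

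The strongest site was the first A of the AUUUA at nucleotides 504 to 508 (5:92346859-92346863), printed above as the main peak. It held 43 cDNAs, 7.83% of the gene's total, and the U before it held 15. The pentamer itself held 75 cDNAs. Sites at most 5 nt apart around it formed a cluster of 29 nt (5:92346850-92346878) with 147 cDNAs, or 26.8% (23.1 to 30.7). In the same cluster lay 5 of the 13 GFP-TTP cDNAs. It ended at nucleotide 517 and the next cluster began at 523, so the division between them depends on the 5 nt allowed.

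The second peak lay about the run of 6 U and had no AUUUA. Nucleotide 546, a U within the run, held 19 cDNAs, and nucleotide 542, the A before it, held 17. The 29 nt printed above held 155 cDNAs of GFP-TTP-AA, against 145 in the 30 nt of the main peak, and 4 of GFP-TTP. The windows thus held similar numbers of cDNAs, but the highest site of the second was lower. It opened a continuous cluster of 100 nt (5:92346745-92346844), with 79 sites and 293 cDNAs, or 53.4% (49.1 to 57.6), that ran through the tail peak, where 29 nt held 70 cDNAs of GFP-TTP-AA and none of GFP-TTP.

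Only 9 sites had 10 or more cDNAs, and they held 28.1% of the total. The mean was 3.39 cDNAs per site, where the whole GFP-TTP-AA list had 1.53 over its 3′UTR sites. Of the other 122 genes with at least 100 GFP-TTP-AA cDNAs, 18 had more cDNAs per site. The random part of the barcode allows 256 different cDNAs per nucleotide and library, well above the highest count of 43 over 3 libraries.

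The tail that only Cxcl10-201 contains, 167 nt from 5:92346638 to 92346804, held 211 GFP-TTP-AA cDNAs (38.4%, 34.3 to 42.6) and 4 of the 13 GFP-TTP cDNAs, so that crosslinked RNA reached beyond the annotated end of Cxcl10-202. The polyadenylation hexamer AAUAAA occurred once in the 3′UTR of Cxcl10-201, 21 nt before its end. The hexamer had 6 GFP-TTP-AA cDNAs within 20 nt. The only site at 4 h, nucleotide 694, lay in this last part as well. It had 1 cDNA with GFP-TTP-AA at 4 h and 1 at 1 h.

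Cxcl10 had few canonical AU-rich motifs. Motifs were searched in the 3′UTR of Cxcl10-201, on the transcript strand only, and overlapping matches were counted. This 3′UTR contained AUUUA at 2 places and neither UAUUUAU nor UUAUUUAUU. A further AUUUA lay in the 434 nt that are 3′UTR only in Cxcl10-202, which held 0 cDNAs of both proteins at 1 h. The median over the 123 genes was 4 AUUUA and 1 UAUUUAU, and 53 others also had no UAUUUAU. The places of AUUUA in Cxcl10-201 differed. The second, described above, had 149 GFP-TTP-AA and 5 GFP-TTP cDNAs within 20 nt. The first, nucleotides 414 to 418 (5:92346949-92346953), had 0 of both.

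Within 20 nt of AUUUA, meaning that the pentamer lay wholly inside that distance, were 27.1% (23.5 to 31.1) of the GFP-TTP-AA cDNAs and 10.2% of the 3′UTR positions. Among the stretch from first to last site, 24.0% of positions were that near. The share depended on the distance allowed: it was 19.9% at 10 nt and 57.7% at 50 nt, and it was 14.2% when each site counted 1. Of the other 122 genes, 83 had a higher share and 39 a lower one, with a median of 39.1%.

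All 6 other chemokines with at least 100 GFP-TTP-AA cDNAs had a higher share than Cxcl10. It was 93.9% (92.2 to 95.4) in Ccl3 with 5 AUUUA, 72.3% (69.3 to 75.3) in Ccl4 with 2, and 67.9% (66.0 to 69.7) in Cxcl2 with 11. Ccl2, with 1 AUUUA and, like Cxcl10-201, no UAUUUAU, had 39.8% (36.6 to 43.0). The value of Ccl9, 33.6% (25.0 to 43.1), overlaps the interval of Cxcl10. Per 100 nt of annotated 3′UTR, Cxcl10 had 47.2 GFP-TTP-AA cDNAs, fewer than Ccl2 (332), Ccl4 (293), Ccl3 (229) and Cxcl2 (170), and more than Ccl9 (4.58); on the 729 nt of Cxcl10-201 alone the density was 75.3.

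**Figure D4:**
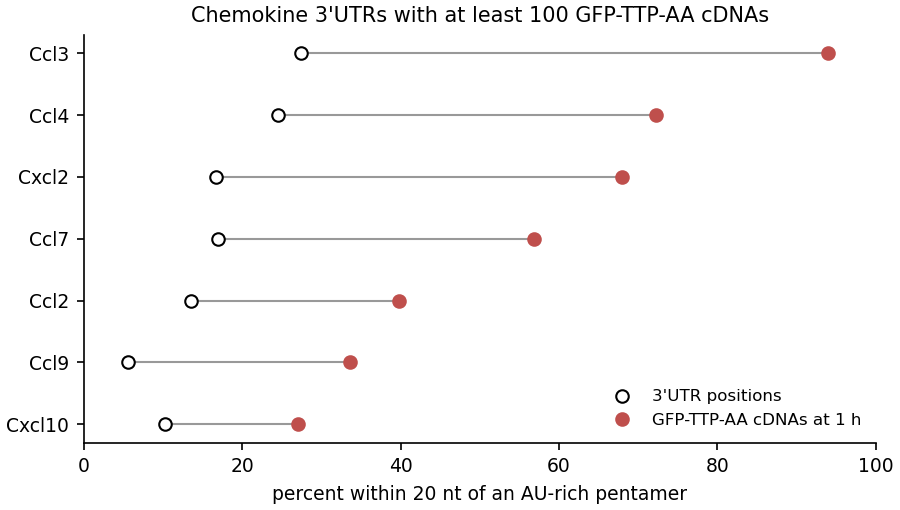
Percent of GFP-TTP-AA 3′UTR cDNAs at 1 h (filled) and percent of 3′UTR positions (open) that lie within 20 nt of an AUUUA pentamer, for Cxcl10 and the 6 other chemokines with at least 100 GFP-TTP-AA cDNAs. Cxcl10 has the lowest share of cDNAs, 27.1% against 10.2% of positions, and Ccl3 the highest, 93.9% against 27.4%.

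Runs of U and the pentamer were compared by the cDNAs near them. The motif UUUUU began at 3 nucleotides, 543, 544 and 617, in the second and the tail peak, and 43.9% (39.7 to 48.2) of GFP-TTP-AA cDNAs lay within 20 nt of it, against 10.3% of 3′UTR positions and 24.4% of positions between the first and the last site; the share near AUUUA was 27.1%. Within 5 nt the shares were 20.2% (16.9 to 23.8) for UUUUU and 17.9% (14.7 to 21.3) for AUUUA, with intervals that overlap. Positions that near made up 4.87% and 4.55%, in this order, of those between the first and the last site. Of all 3′UTR positions they made up 2.06% and 1.92%. Both intervals lie above these values. UGUGU, at 2 places, had 37.9% (33.8 to 42.1) within 20 nt, but one of them lies within 20 nt of the second AUUUA, so these shares overlap.

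The nucleotide at the site itself was U in 54.1% of the Cxcl10 GFP-TTP-AA cDNAs, A in 28.4%, G in 9.84% and C in 7.65%. In the 3′UTR of Cxcl10-201 as a whole, U made up 28.4%, and between the first and the last site 34.1%. Over the other 3′UTR cDNAs of the same list, 62.0% were at U and 23.9% at A. The share of A differed from that of the others by offset. It was 41.5% against 26.3% at 6 nt before the site and 43.5% against 31.3% at 5 nt after it, but 20.8% against 21.0% at 1 nt and 23.9% against 24.0% at 2 nt before it. Between the first and the last site, A made up 34.7% of the 3′UTR.

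**Figure D5:**
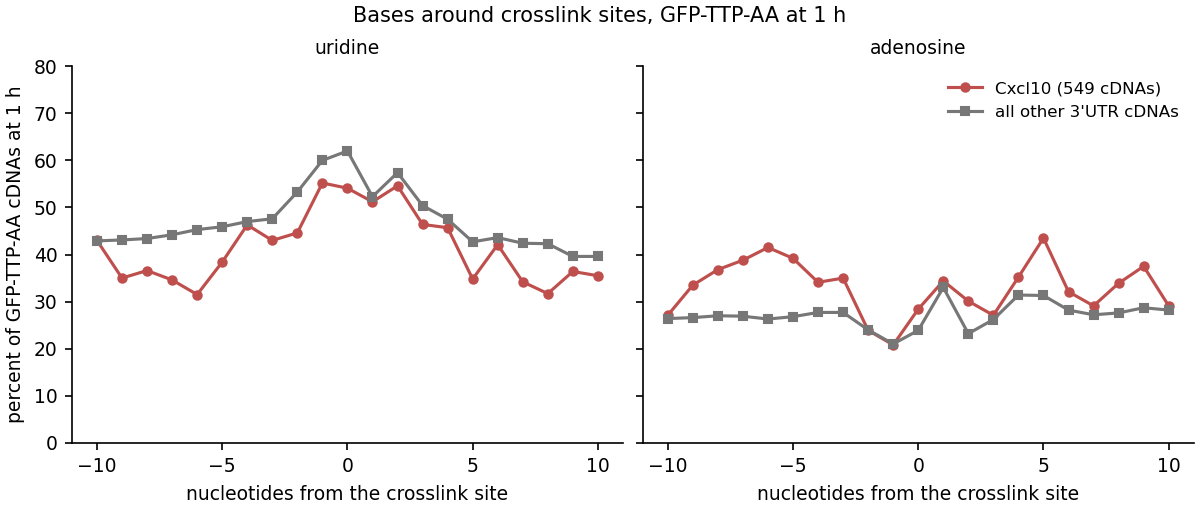
Percent of GFP-TTP-AA cDNAs at 1 h with uridine (left) or adenosine (right) at each distance of up to 10 nt from the crosslink site (0 is the site, negative is 5′), for Cxcl10 (549 cDNAs, red) and for all other 3′UTR cDNAs of the list (92736, grey). Uridine is most frequent 1 nt before the site in Cxcl10, at 55.2%, and at the site in the others, at 62.0% against 54.1% in Cxcl10. Adenosine in Cxcl10 is level with the others at 1 and 2 nt before the site and above them at every other offset.

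The 13 GFP-TTP cDNAs at 1 h lay within the stretch that held the mutant's sites. None of them lay in the tail peak, where GFP-TTP-AA had 70, or 12.8% of its cDNAs. The interval for 0 of 13 runs from 0 to 24.7% and includes that share. The GFP-TTP sites were nucleotides 492, 502, 504, 505, 508, 537, 545, 547, 551, 649, 650, 652 and 662, each with 1 cDNA. The median position was nucleotide 545 for both proteins, with quartiles of 505 and 649 for GFP-TTP and of 506 and 609 for GFP-TTP-AA. Of the 13 sites, 11 were also GFP-TTP-AA sites to the nucleotide (84.6%, 54.6 to 98.1), and all 13 had a GFP-TTP-AA site within 5 nt. GFP-TTP-AA sites took 22.2% of the 3′UTR nucleotides and 52.6% of those between the first and the last site, and 82.1% of the latter were within 5 nt of one. Conversely, 58.3% of GFP-TTP-AA cDNAs lay within 5 nt of a GFP-TTP site, which 10.4% of 3′UTR positions and 24.7% of those between the first and the last site did.

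Both lists differed in depth per site too. All 13 GFP-TTP sites had 1 cDNA, whereas 106 of the 162 GFP-TTP-AA sites had 2 or more, with 493 cDNAs. With at least 2 cDNAs required, Cxcl10 would not be listed for GFP-TTP at all. Counted by sites instead of cDNAs, the ratio of both proteins was 12.5. The lists held 61183 GFP-TTP-AA and 6775 GFP-TTP 3′UTR sites in all, so by sites Cxcl10 stood less far above its list than by cDNAs. No interval was computed for the ratio by sites, so whether it differs from that of the lists beyond counting error was not assessed. With 5 of 13 GFP-TTP cDNAs near AUUUA (38.5%, 13.9 to 68.4), its interval includes the 27.1% of GFP-TTP-AA.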

How the data were processed

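The deposited lists give, for each crosslinked nucleotide, a score, which the values and the file headers show to be a whole number of unique cDNAs signed by strand. The authors removed PCR duplicates by random barcodes, mapped unique reads to mm10 (GRCm38) with Bowtie, added up the libraries of each group and retained sites at a false-discovery rate of 0.05 (100 permutations, 15 nt flank).

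Sites were assigned by strand with Python 3.11.15, numpy 2.4.6 and scipy 1.17.1 to the 3′UTRs of GENCODE M21 coding transcripts, and plots were drawn with matplotlib 3.10.9. The longest 3′UTR of Cxcl10 had been planned as its region; because it ends 167 nt early, the 3′UTRs of all coding transcripts were joined for every gene, and the longest alone became an alternative chosen after seeing the data. Genes were named where a listed chemokine, interferon response or signalling gene had at least 30 3′UTR cDNAs over both 1 h lists, or among the 5 most similar profiles; other names (the remaining list members, Anxa5) were chosen after their values were seen. The gene, lists and rules were chosen with earlier results of these data known. Lists are pooled, so no test was made. Assignment and intervals were tested on simulated data.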

Additional observations from a re-analysis of the deposited data

How the results depend on the processing

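No paired analysis was possible because each list sums the libraries of its group, and for the same reason no library could be left out. The cDNA ratio of Cxcl10 between GFP-TTP-AA and GFP-TTP at 1 h was 42.2. It stayed above 1 under all alternatives, as the median ratio of the 2065 genes, 5.98, did in the main setting. It was 42.2 with all sense sites of the gene or with 200 nt added downstream, 56.3 per pooled library, and 37.6 on the 3′UTR of Cxcl10-202 alone (chosen after seeing the data). It was 12.5 by sites, at least 164 with sites of 2 or more cDNAs (GFP-TTP set to 3) and 4.32 as a share of 3′UTR cDNAs. It was 24.0 as a share of all cDNAs and 19.2 as that share without the chromosome 17 ribosomal RNA locus. These values follow from the different quantity that each counts. The site ratio has no interval and is to be read beside the lists' totals of 61183 and 6775 3′UTR sites, above which Cxcl10 stood less far than by cDNAs. The share near AUUUA, 27.1%, was 19.9% within 10 nt, 57.7% within 50 nt, 14.2% by sites and 29.4% at sites of 2 or more cDNAs. The densest 100 nt held 63.8%, the densest 50 nt 45.4%, the densest 200 nt 94.2%, and by sites 48.8%. Of the 13 GFP-TTP sites, 13, 13 and 11 had a GFP-TTP-AA site within 15 nt, within 5 nt and at the same nucleotide. The 3 genes at or above the Cxcl10 ratio were 3 of the 133 genes with at least 100 cDNAs. With 0.5 added to both counts they were 484, where the minimum of 3 GFP-TTP cDNAs no longer applies. Depth limits the 4 h lists and the values that rest on the 13 GFP-TTP cDNAs.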

Other observations

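The tetramer UGUA was chosen after the sequence of the peaks had been seen. It occurred at 16 places in the 3′UTR of Cxcl10-201, 13 of them between the first and the last site. Within 5 nt of it lay 42.6% (38.4 to 46.9) of the GFP-TTP-AA cDNAs at 1 h and 31.8% of the positions between the first and the last site. For GFP-TTP these were 7 of 13 cDNAs (53.8%, 25.1 to 80.8). Within 20 nt of it lay 90.0% of the GFP-TTP-AA cDNAs and 87.7% of the positions between the first and the last site. The 2 most upstream UGUA, at nucleotides 270 and 275, lie before the first site and had no cDNA within 20 nt. The UGUA at nucleotide 423, after the first site, had none either.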
